A study of Mus musculus with 3 samples.

Results

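The genes described here are 29 lysosomal genes of the mouse, among 32285 genes measured: proteases, the enzymes and inhibitors that act beside them, proteins of the lysosomal membrane and its proton pump, and regulators. They were chosen as a list of lysosomal genes, by name. The study sequenced single dendritic cells from MCA205 LA-OVA tumours, a mouse fibrosarcoma line that carries a form of ovalbumin, harvested on day 5. Pre-cDCs, cDC1s and cDC2s were sorted, through a gate that left out cells with NK1.1, a marker of natural killer cells, or CD88, a marker of monocytes and macrophages, and were mixed before sequencing, with animals pooled into 1 library for each of 3 genotypes, WT, sGSN-/- and sGSN-/-Clec9a-/-. The sGSN-/- animals lack secreted gelsolin, a protein that shields actin filaments from the receptor encoded by Clec9a, and the third group lacks that receptor as well. Every animal bore the same tumour line, no library comes from animals without a tumour, the study used males and females aged 6 to 20 weeks, and the secreted form of gelsolin cannot be separated from the other in these counts. By the paper's counts of the cohort, the share of males was highest in the WT and lowest in the sGSN-/-Clec9a-/- animals. All values are given in the order WT, sGSN-/-, sGSN-/-Clec9a-/-.

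The libraries held 12763, 8173 and 9273 cell barcodes with 176578136, 109270958 and 113411930 UMIs (unique molecular identifiers, each counting 1 captured transcript) and medians of 13210, 11954 and 10649 UMIs per barcode. The authors' table of cDC1s, with their cluster numbers, named 2316, 1712 and 1778 of these barcodes. The WT and sGSN-/- libraries shared 26 barcode sequences, the WT and sGSN-/-Clec9a-/- libraries 28, and the sGSN-/- and sGSN-/-Clec9a-/- libraries 27, of which 2, 2 and 3 were in that table. Levels are CPM, counts per 1e6: the UMIs of a gene, scaled to 1e6 UMIs summed over the cells of a group in 1 library, and the 3 libraries served as replicates where states of cells were compared.

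Lysosomes are acidic compartments in which hydrolases take apart proteins, lipids and sugars delivered by endocytosis and autophagy, and a proton pump in their membrane, the V-ATPase, keeps them acidic. In dendritic cells the same cysteine and aspartic proteases, together with legumain and a thiol reductase, trim antigens and the invariant chain for presentation on MHC class II. cDC1s are known for mild endosomal proteolysis and for cross-presentation on MHC class I, whereas macrophages are known for strong degradation.

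The cDC1s were grouped by the authors' clusters: 1332 early cells (clusters 4 and 1; 495, 431 and 406 per library), 3499 resting cells (clusters 5, 2, 3, 6 and 0; 1476, 937 and 1086), cluster 7 with 422 cells (154, 134 and 134), cluster 9 with 162 cells (67, 40 and 55), cluster 8 with 255 cells (84, 114 and 57), and cluster 10 with 76 cells (21, 27 and 28). Cluster 11, with 60 cells, a median of 2348 UMIs and a mitochondrial share of 8.07%, was left out. Early cells held more of a list of 5 precursor genes, led by Flt3, with 288, 277 and 240 CPM against 223, 209 and 221 CPM in resting cells. Ccr7, Fscn1, Il12b and Ccl22 marked cluster 8, with a summed level of 8077, 6562 and 3928 CPM against 9.99, 10.9 and 8.44 in resting cDC1s. Cxcl9, Cxcl10, Serpina3g and Gbp5 marked cluster 10, with 6711, 7318 and 7799 CPM against 35.9, 23.2 and 18.9. Outside the authors' table, 5292 barcodes held at least 3 UMIs of Cd209a, a lectin of cDC2s and monocyte-derived cells, and more Cd209a than C1qa. Another 3849 held at least 3 UMIs of C1qa, a complement gene of macrophages, and more C1qa than Cd209a. A last group of 2552 barcodes with at least 2 UMIs of the natural killer receptor gene Ncr1 served as a reference for free RNA, which gives UMIs in cells that do not express a gene. Whether some of these barcodes held more than 1 cell was not tested, so their levels may exceed free RNA.

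A list of 7 cDC1 genes, led by Irf8, summed to 2529, 2479 and 2401 CPM in the cDC1s and to 362, 494 and 434 CPM in Cd209a barcodes. Cd209a and C1qa, by which the barcodes were chosen, are left out of the next sums. The other 6 genes of the cDC2 list gave 1155, 1120 and 1107 CPM in Cd209a barcodes and 908, 976 and 915 CPM in C1qa barcodes, so they set the 2 groups apart by little. The other 7 genes of the macrophage list gave 381, 335 and 418 CPM in the former and 7310, 6325 and 6035 CPM in the latter. Clec9a gave 5497, 3951 and 2 UMIs in the cDC1s.

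Together the 29 members took 32191, 33428 and 32169 CPM of the cDC1s, and most of that was Cst3, the gene of the secreted protease inhibitor cystatin C. Without Cst3 the sum was 10325, 10184 and 10361 CPM in cDC1s, 10640, 10355 and 11172 CPM in Cd209a barcodes and 16542, 15684 and 16680 CPM in C1qa barcodes. The Ncr1 barcodes held 2833, 2924 and 3460 CPM. In this sum the cDC1s stood close to the Cd209a barcodes, and the C1qa barcodes stood above both in each of the 3 libraries. Single members ran both ways beneath it. In the WT library Psap had 2748 CPM in cDC1s and 983 CPM in Cd209a barcodes, whereas Ctss had 650 and 1891 CPM. Lyz2 and Ctss, at 3738 and 2761 CPM, made up much of the WT sum of C1qa barcodes.

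The members did not share 1 order over the clusters of cDC1s. Cluster 8 had the highest mean level of 7 members and the lowest of 8, and cluster 6 the highest of 8 and the lowest of 4. Cluster 4 had the highest of 7 and the lowest of 1. The counts of cluster 8 include Mcoln2 as highest, from 5, 1 and 3 UMIs, and Ctse as lowest, from 1, 1 and 2 UMIs. Cluster 6 was the shallowest of the resting clusters, with a median of 8530.5 UMIs against 13930 over all resting cDC1s, and the part of depth in its levels was not tested. Ctsz, Lgmn, Lamp1 and Cst3 were above all other clusters in cluster 8 in every library, and Ctsa, Naaa and Ppt1 were below all others there. Lamp2, Psap, Naaa, Laptm5 and Atp6v1h were above all other clusters in cluster 6, and Lyz2 in cluster 0, again in every library. Ctsh, Ctsz, Ifi30 and Cst3 were below all other clusters in cluster 6 in every library.

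**Figure D1:**
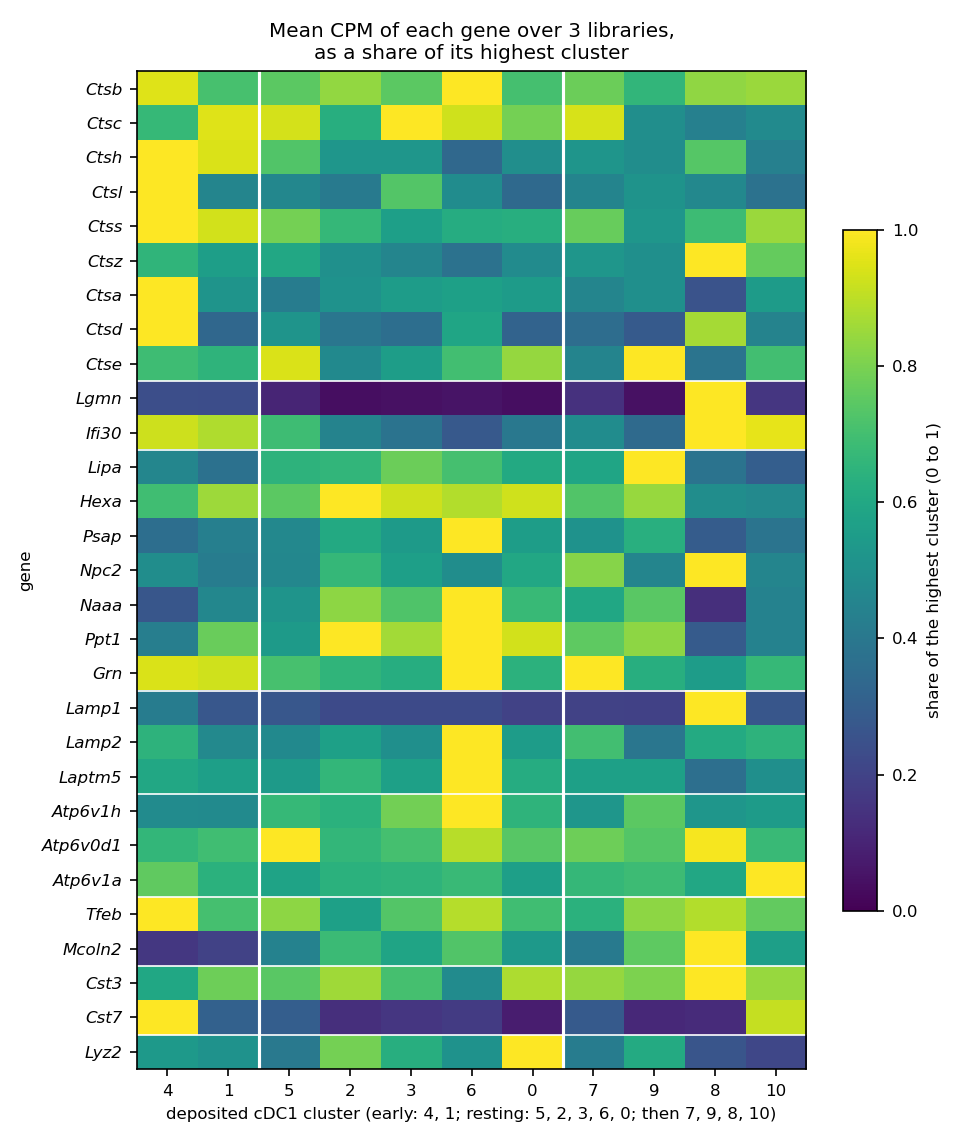
Mean level over the 3 libraries of the 29 members (vertical axis) in 11 cDC1 clusters (horizontal axis: early 4 and 1, resting 5, 2, 3, 6 and 0, then 7, 9, 8 and 10), coloured as a share of the member's highest cluster. Cluster 8 is highest for 7 members and lowest for 8.

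Each state was tested against resting cDC1s with edgeR's quasi-likelihood test on summed UMIs, scaled by trimmed mean of M-values (TMM), and a gene is called higher or lower at a Benjamini-Hochberg adjusted p below 0.05. The fit over the clusters tested 8536 genes and 27 of the 29 members, since Ctse and Mcoln2 had too few UMIs for it. Because the clusters were defined on the same counts, these p-values describe how closely the 3 libraries repeat a difference, and they do not test whether the clusters exist. A member close to the minimum count passes more readily where it is high, so the counts of members describe the list and support nothing by themselves. Log2 fold changes are given with n = 3 libraries and a standard error worked back from the statistic of edgeR's test. The variance behind it draws on all genes and on all sums of a fit. It is therefore not the spread of the 3 libraries, which can be wider. Of all 146 calls of members 144 had the same direction in each of the 3 libraries.

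In early cDC1s 11 of the 27 members were higher than in resting cDC1s, where 16.1% of all tested genes were, and 6 were lower, where 18.1% of all genes were. The median log2 fold change was 0.04 over the members and -0.01 over all genes. The higher members were Ctsa, Ctsd, Ctsh, Ctsl, Ctss, Ctsz, Lgmn, Ifi30, Lamp1, Grn and Cst7. Lipa, Psap, Npc2, Naaa, Ppt1 and Atp6v1h were the lower ones. Without the WT, sGSN-/- or sGSN-/-Clec9a-/- library 5, 8 and 6 members were higher. With cluster 1 alone as the early cells 5 were higher. Cluster 4 held more transcripts of marker genes of other cells than cluster 1: the cDC2 list, led by Cd209a, summed to 328, 260 and 342 CPM against 60.5, 61.8 and 50.1, and the macrophage list to 166, 104 and 199 CPM against 60.7, 40.3 and 46.2. Without mixed barcodes, the cDC1s that held at least 3 UMIs of Cd209a or C1qa or at least 2 of Ncr1, early cells had 66.2, 62.4 and 63.7 CPM of the cDC2 list, and 8 members were higher and 7 lower. Ctsa and Ctsd were then not past the threshold, and Cst7 had too few UMIs for a test.

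In cluster 8 11 members were higher than in resting cDC1s, beside 25.7% of all genes, and 9 were lower, beside 24.0%. The median log2 fold change was 0.27 over the members and -0.05 over all genes. Scaling by library size in place of TMM moved the median of all genes by -0.19 and the share of higher genes among the called from 51.7% to 37.1%, and then gave 9 higher and 11 lower members. The macrophage list, led by Apoe with no gene at 0, summed to 607, 60.6 and 73.7 CPM in cluster 8 against 59.0, 42.9 and 48.1 in resting cells. Leaving out 4 cells of cluster 8 with at least 3 C1qa UMIs brought it to 122, 48.9 and 73.7 CPM, in cells sorted as negative for CD88. The natural killer list, led by Gzma, summed to 18.4, 134 and 38.8 CPM there, though the sort left out cells with NK1.1 on their surface. Without mixed barcodes it was 19.0, 67.7 and 39.4 CPM, and 10 members were higher and 9 lower. In that run the cDC1 list summed to 1348, 1315 and 1360 CPM in cluster 8 against 2787, 2744 and 2643 in resting cells. The cDC2 list gave 77.2, 28.2 and 59.1 CPM against 26.6, 25.2 and 24.7. A list of T cell genes gave 15.9, 26.6 and 3.94 CPM against 2.75, 3.65 and 3.22. One of plasmacytoid dendritic cells gave 408, 515 and 289 CPM against 262, 285 and 262. The part of these lists was not tested.

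In cluster 10 6 members were higher than in resting cDC1s, beside 8.53% of all genes, and 9 were lower, beside 6.53%. The median was -0.07 over the members and -0.04 over all genes. Without the WT, sGSN-/- or sGSN-/-Clec9a-/- library 2, 3 and 4 members were higher, and 2, Ctsz and Ifi30, were higher without mixed barcodes. The cDC2 list, led by Cd209a with Clec4a4 at 0, summed to 138, 509 and 107 CPM in cluster 10 against 28.1, 25.7 and 25.2 in resting cells. Without mixed barcodes the cDC2 list was still higher there, with 41.9, 100 and 62.8 CPM against 26.6, 25.2 and 24.7. Its part was not tested beyond that run. Compared directly, cluster 8 was higher than cluster 10 for 7 members, beside 15.7% of all genes, and lower for 2, beside 12.5%, with a median of 0.19 against 0.02 over all genes. Scaling by library size moved the median of all genes there by -0.20 and the share of higher genes among the called from 55.7% to 37.2%, and 7 members were higher and 6 lower. Without the WT, sGSN-/- or sGSN-/-Clec9a-/- library 1, 1 and 3 members were lower.

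In cluster 7 5 members were higher, beside 11.8% of all genes, and 1 was lower, beside 6.10%, with a median of 0.08 against -0.02. Scaling by library size moved the median of all genes by -0.10 and the share of higher genes among the called from 65.8% to 45.4%, with 3 members higher and 3 lower. With each library as a block in the fit 8 were higher and 2 lower. Without the WT, sGSN-/- or sGSN-/-Clec9a-/- library 3, 3 and 5 were higher and 0, 1 and 1 lower. In cluster 9 1 member was higher, beside 3.99% of all genes, and 2 were lower, beside 1.32%, with a median of -0.10 against -0.02. No member was higher in cluster 9 once any 1 library was left out, and without the WT, sGSN-/- or sGSN-/-Clec9a-/- library 0, 2 and 1 were lower in edgeR's test, where 5, 5 and 5 members had an unadjusted p below 0.05 in either direction. With libraries as a block 4 were lower in cluster 9.

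The groups outside the authors' table were tested against all cDC1s in a fit of 12832 genes that held all 29 members. In Cd209a barcodes 16 members were higher, beside 31.1% of all genes, and 8 were lower, beside 28.1%, with a median of 0.40 over the members and 0.00 over all genes. In C1qa barcodes 20 were higher, beside 34.2%, and 8 were lower, beside 32.9%, with a median of 0.82 against 0.00. These comparisons share the cDC1 sums. C1qa barcodes were also higher than Cd209a barcodes for 19 members, beside 17.0%, and lower for 5, beside 16.7%, with a median of 0.31 against 0.00. Library-size scaling moved the median of all genes by 0.16 in Cd209a barcodes and by 0.18 in C1qa barcodes. The share of higher genes among the called went from 52.5% to 70.0% in the former, with 20 members higher and 7 lower, and from 51.0% to 66.3% in the latter, with 21 higher and 7 lower.

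Among the proteases, legumain had the largest called values in early cells and in clusters 7, 8 and 10. Lgmn (ENSMUSG00000021190, GRCm38 chromosome 12, 102394084 to 102439813, minus strand) encodes an endopeptidase that cuts after asparagine and that also processes cathepsins to their mature forms. Its level was 10.1, 15.0 and 9.57 CPM in resting cDC1s, 53.5, 55.7 and 56.2 in early cDC1s, and 274, 277 and 140 in cluster 8. The libraries of the 3 states did not overlap, and the sGSN-/-Clec9a-/- library was the lowest in cluster 8. Lgmn was higher in early than in resting cells by a log2 fold change of 2.27 ± 0.17 (adjusted p = 2e-10, 3 of 3 libraries) and in cluster 8 by 4.59 ± 0.19 (adjusted p = 5.5e-17, 3 of 3). Without the 4 cells that held C1qa its level in cluster 8 was 266, 274 and 140 CPM. With cluster 1 alone as early cells and in all other settings tried it lay between 2.15 and 2.47 in early cells, called in 11 of 11 settings.

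Lgmn stood at 20.2, 38.8 and 38.8 CPM in cluster 7, above resting cells in each library (log2 fold change 1.59 ± 0.23, adjusted p = 9.2e-06). In cluster 10 it stood at 49.6, 32.2 and 26.8 CPM, from only 14, 10 and 8 UMIs. It was higher there than in resting cells by 1.63 ± 0.48 (adjusted p = 0.0196, 3 of 3 libraries), though not past the threshold without the WT library, at 1.31, nor with mixed barcodes left out, at 1.41. Cluster 8 was higher than cluster 10 by 2.96 ± 0.33 (adjusted p = 1e-07, 3 of 3). Outside the cDC1s, Lgmn had 93.1, 93.5 and 88.0 CPM in Cd209a barcodes and 407, 331 and 331 CPM in C1qa barcodes against 28.7, 41.5 and 25.8 CPM in all cDC1s. Both groups were above the cDC1s in every library, by 1.36 ± 0.14 (adjusted p = 7.2e-06) and 3.31 ± 0.15 (adjusted p = 4.2e-09). C1qa barcodes were higher than Cd209a barcodes by 1.95 ± 0.14 (adjusted p = 1.3e-06).

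The share of cells with at least 1 Lgmn UMI followed the same order. It was 12.5% of resting cells (Clopper-Pearson 95% interval 11.4 to 13.6), 44.0% of early cells (41.3 to 46.7) and 58.8% of cluster 8 (52.5 to 64.9). In Ncr1 barcodes, with a median of 9675 UMIs against 13930 in resting cells, 6.70% (5.76 to 7.74) held 1. Cells were then thinned to 3900 UMIs and shallower ones left out, which kept 3394 of 3499 resting cells, 1281 of 1332 early cells, 198 of 255 in cluster 8 and 2262 of 2552 Ncr1 barcodes. The shares among the cells kept were 4.57%, 19.7%, 48.0% and 2.87%. The level in Ncr1 barcodes was 15.6, 11.1 and 12.3 CPM, close to that of resting cDC1s as a whole, whereas the share after thinning was lower in Ncr1 barcodes (2.22 to 3.65) than in resting cells (3.89 to 5.32). The 413 Lgmn UMIs of the Ncr1 barcodes lay in 171 cells, against 543 UMIs in 437 resting cells. The part of barcodes with more than 1 cell was not tested, so the CPM of Ncr1 barcodes does not fix a level of free RNA. The resting clusters were unequal: cluster 5, with 22.4, 30.2 and 17.7 CPM, lay above the Ncr1 barcodes in each library, and cluster 2, with 6.70, 10.5 and 7.31 CPM, lay below them in each.

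Ifi30 encodes GILT, the lysosomal thiol reductase that opens disulphide bonds of antigens. Its level was 458, 523 and 427 CPM in resting cDC1s, 951, 983 and 929 in early cDC1s, 1083, 1222 and 895 in cluster 8 and 1021, 1102 and 954 in cluster 10. Every library of the latter 3 states lay above every resting library. Against resting cells Ifi30 was higher by 1.02 ± 0.10 in early cells (adjusted p = 1.1e-08), 1.39 ± 0.10 in cluster 8 (adjusted p = 9.9e-12) and 1.11 ± 0.11 in cluster 10 (adjusted p = 1.4e-08), each in 3 of 3 libraries. It was not called between clusters 8 and 10, at 0.27, but passed the threshold there with libraries as a block and, at 0.39, without the sGSN-/-Clec9a-/- library. With that block it also passed at 0.25 in cluster 7 and at -0.33 in cluster 9. Cd209a barcodes had 1823, 1656 and 1518 CPM and C1qa barcodes 1290, 1219 and 1135 CPM against 589, 677 and 562 CPM in all cDC1s. Both groups lay above the cDC1s in all libraries (1.29 ± 0.08, adjusted p = 1.1e-07, and 0.82 ± 0.08, adjusted p = 3.4e-06), and C1qa barcodes were lower than Cd209a barcodes (-0.47 ± 0.08, adjusted p = 0.00088, 3 of 3).

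The cysteine cathepsins moved apart from each other. Ctsh, an aminopeptidase, had 198, 222 and 198 CPM in resting cDC1s, 365, 364 and 396 in early cells, 325, 324 and 213 in cluster 8 and 163, 171 and 174 in cluster 10. Early cells lay above all resting libraries, and so did the WT and sGSN-/- libraries of cluster 8, whereas its sGSN-/-Clec9a-/- library overlapped them. Ctsh was higher in early cells by 0.86 ± 0.11 (adjusted p = 5.5e-07), in cluster 8 by 0.70 ± 0.12 (adjusted p = 1.5e-05) and in cluster 8 against cluster 10 by 1.0 ± 0.16 (adjusted p = 1.6e-05), each in 3 of 3 libraries. Ctsz, a carboxypeptidase also called cathepsin X, had 356, 381 and 370 CPM in resting cells and 774, 771 and 720 in cluster 8, with 532, 606 and 592 in cluster 10 and 449, 440 and 455 in early cells. The 4 groups did not overlap. It was higher in cluster 8 by 1.23 ± 0.10 (adjusted p = 5.4e-11), in cluster 10 by 0.63 ± 0.11 (adjusted p = 0.00011) and in cluster 8 against cluster 10 by 0.60 ± 0.11 (adjusted p = 0.00013), with 3 of 3 libraries each. Its rise in early cells, 0.28 ± 0.09 (adjusted p = 0.0242, 3 of 3), was not past the threshold without the WT, sGSN-/- or sGSN-/-Clec9a-/- library, at 0.26, 0.31 and 0.27, nor with cluster 1 alone at 0.24, without cluster 6 at 0.23 or without the filter at 0.25.

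Ctss, the endopeptidase best known for cutting the invariant chain, had 576, 591 and 515 CPM in resting cDC1s and 878, 818 and 793 CPM in early cells. Early cells lay above resting cells without overlap, and Ctss was higher by 0.56 ± 0.10 (adjusted p = 0.00013, 3 of 3 libraries). In cluster 10 it had 847, 748 and 609 CPM and in cluster 7 690, 714 and 591 CPM. Both clusters stood above the resting level of their own library, by 0.37 ± 0.11 (adjusted p = 0.0295) and 0.35 ± 0.10 (adjusted p = 0.0207). Neither call held without the WT library (0.34 and 0.35), the sGSN-/- library (0.37 and 0.32) or the filter on low counts (0.26 and 0.31). That in cluster 10 was also not past the threshold without mixed barcodes, at 0.26, and that in cluster 7 with library-size scaling, at 0.25, or without cluster 6, at 0.29. In cluster 8 Ctss had 692, 613 and 474 CPM, above resting cells in the WT and sGSN-/- libraries and below them in the sGSN-/-Clec9a-/- library. The value there, 0.28 ± 0.11 (adjusted p = 0.0311), was not past the threshold without the WT library at 0.23, without the sGSN-/- library at 0.28, without the C1qa cells or mixed barcodes at 0.19, without the filter at 0.16 or by library size at 0.09. In cluster 9 it passed at -0.29 with libraries as a block.

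Ctsc, also called dipeptidyl peptidase 1 and known for activating granule proteases, had 297, 292 and 252 CPM in resting cDC1s. It had 143, 131 and 169 CPM in cluster 8, 198, 122 and 164 CPM in cluster 10, with 144, 207 and 149 CPM in cluster 9. All of these lay below the resting libraries. Ctsc was lower in cluster 8 by -0.76 ± 0.12 (adjusted p = 1.4e-05), in cluster 10 by -0.82 ± 0.15 (adjusted p = 0.00029) and in cluster 9 by -0.76 ± 0.13 (adjusted p = 0.00018), each in 3 of 3 libraries. Without the WT library the value in cluster 9 was -0.59 and not past the threshold. In cluster 7 it passed at 0.28 with libraries as a block. Ctsb, an abundant endopeptidase with carboxypeptidase activity, had 143, 144 and 132 CPM in resting cells and 170, 141 and 136 CPM in cluster 8, which overlapped. Its call in cluster 8, 0.29 ± 0.10 (adjusted p = 0.02), had the direction of the CPM ratio in 2 of 3 libraries and was not past the threshold without the WT library at 0.25, without the sGSN-/- library at 0.35, without the filter at 0.16 or by library size at 0.10. Ctsl, an endopeptidase, had 13.6, 14.7 and 13.2 CPM in resting and 18.9, 16.8 and 22.6 CPM in early cells, without overlap. It was higher by 0.48 ± 0.14 (adjusted p = 0.0102, 3 of 3), but not past the threshold without the WT library at 0.49, without the sGSN-/-Clec9a-/- library at 0.34, or with cluster 1 alone at 0.02.

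Outside the cDC1s the cysteine cathepsins were mostly higher. Ctsl had 15.1, 14.3 and 15.6 CPM in all cDC1s, 66.8, 87.4 and 68.1 in Cd209a barcodes and 257, 193 and 202 in C1qa barcodes. The 3 groups did not overlap, and Ctsl was higher by 2.14 ± 0.13 in Cd209a barcodes (adjusted p = 7.7e-08) and 3.68 ± 0.13 in C1qa barcodes (adjusted p = 8.3e-10), each in 3 of 3 libraries. Ctss had 650, 659 and 581 CPM in cDC1s against 1891, 1714 and 1615 in Cd209a barcodes and 2761, 2447 and 2247 in C1qa barcodes, again without overlap (1.30 ± 0.08, adjusted p = 1.2e-07, and 1.80 ± 0.08, adjusted p = 5.8e-09). Ctsh was at a like level in both groups, with 688, 658 and 653 CPM in Cd209a barcodes and 716, 657 and 661 CPM in C1qa barcodes against 237, 259 and 243 in cDC1s. Ctsb rose less in Cd209a barcodes, at 240, 248 and 250 CPM, than in C1qa barcodes, at 520, 442 and 499 CPM, from 145, 141 and 133 CPM in cDC1s, and the difference between those barcodes was 0.97 ± 0.07 (adjusted p = 1.2e-06, 3 of 3). Ctsc was at 293, 276 and 328 CPM in Cd209a barcodes, not called against 287, 278 and 260 in cDC1s, and higher in C1qa barcodes with 816, 785 and 753 CPM (1.34 ± 0.07, adjusted p = 2.5e-08, 3 of 3). Ctsz was higher by 0.42 and 0.70 in the 2 groups, and its difference between them, 0.29, was not past the threshold without the WT library, at 0.25.

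Ctsd encodes cathepsin D, the main aspartic protease of lysosomes (ENSMUSG00000007891, chromosome 7, 142375911 to 142388038, minus strand). It had 7.72, 7.41 and 7.97 CPM in all cDC1s, 97.0, 105 and 132 CPM in Cd209a barcodes, 271, 273 and 317 CPM in C1qa barcodes and 267, 266 and 280 CPM in Ncr1 barcodes. No library of the cDC1s came near those of the other groups. Ctsd was higher than in cDC1s by 3.70 ± 0.14 in Cd209a barcodes (adjusted p = 2.1e-09) and by 5.05 ± 0.14 in C1qa barcodes (adjusted p = 1.5e-10), each in 3 of 3 libraries. At least 1 Ctsd UMI was found in 8.52% of resting cDC1s, 56.4% of Cd209a barcodes and 91.1% of C1qa barcodes, with median depths of 13930, 13173.5 and 16672 UMIs. No group here is known to lack Ctsd, so its background share was not measured, and its level in cDC1s cannot be told from free RNA. Within the cDC1s it had 7.01, 6.39 and 6.88 CPM in resting cells and 24.2, 12.6 and 7.76 CPM in cluster 8, from 25, 16 and 4 UMIs. All 3 cluster 8 libraries were above the resting ones, the sGSN-/-Clec9a-/- library by little, and the value of 1.42 ± 0.30 (adjusted p = 0.00033, 3 of 3) was 0.98 and not past the threshold without the WT library. In early cells Ctsd had 9.17, 8.82 and 11.8 CPM (0.53 ± 0.19, adjusted p = 0.0349, 3 of 3). That call was not past the threshold without the WT, sGSN-/- or sGSN-/-Clec9a-/- library, at 0.62, 0.57 and 0.41, nor without mixed barcodes, at 0.26, and turned to -0.19 with cluster 1 alone.

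Ctse, an aspartic protease of endosomes, was scarce in every group, with 3.31, 3.49 and 2.89 CPM in cDC1s, 1.90, 2.37 and 1.60 CPM in Cd209a barcodes and 1.47, 0.983 and 1.31 CPM in C1qa barcodes. The cDC1s lay above both in each library (-0.89 ± 0.18, adjusted p = 0.0012, and -1.50 ± 0.19, adjusted p = 2.7e-05). In Ncr1 barcodes Ctse had 3.73, 2.50 and 3.70 CPM, close to the level of the cDC1s. The share of cells with a UMI was 4.43% in resting cells (3.77 to 5.16) and 3.88% in Ncr1 barcodes (3.16 to 4.70), at median depths of 13930 and 9675 UMIs. In C1qa barcodes it was lower, 2.49% (2.02 to 3.04), at a median depth of 16672 UMIs. The Ncr1 and C1qa barcodes gave unlike levels, so the background of Ctse was not measured and its part in the cDC1 values was not tested. C1qa barcodes were lower than Cd209a barcodes by -0.61 ± 0.20 (adjusted p = 0.035, 3 of 3). That call was not past the threshold without the WT, sGSN-/- or sGSN-/-Clec9a-/- library, at -0.76, -0.36 and -0.73. Nor was it past it without mixed barcodes at -0.48, with a minimum of 10 UMIs at -0.40 or in DESeq2's fit and test at -0.61. Over the clusters its mean ran from 1.88 ± 1.74 CPM in cluster 8 to 4.88 ± 0.489 CPM in cluster 9 (SD).

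Ctsa encodes a serine carboxypeptidase that also protects other lysosomal enzymes. It had 36.5, 35.7 and 32.8 CPM in resting cDC1s, 46.7, 40.6 and 52.3 CPM in early cells and 23.3, 14.2 and 13.6 CPM in cluster 8. The 3 states did not overlap. It was lower in cluster 8 by -0.82 ± 0.23 (adjusted p = 0.0037, 3 of 3), though not past the threshold without the sGSN-/- library, at -0.64. Its rise in early cells, 0.40 ± 0.11 (adjusted p = 0.006, 3 of 3), was not past the threshold without the WT library at 0.44 or the sGSN-/-Clec9a-/- library at 0.27, nor without mixed barcodes at 0.24 or with cluster 1 alone at 0.03. Against 37.9, 35.2 and 36.5 CPM in all cDC1s, Cd209a barcodes had 203, 194 and 192 CPM and C1qa barcodes 248, 232 and 234 CPM. Both lay far above the cDC1s in all libraries (2.26 ± 0.06, adjusted p = 1.8e-10, and 2.53 ± 0.06, adjusted p = 5.9e-11).

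**Figure D2:**
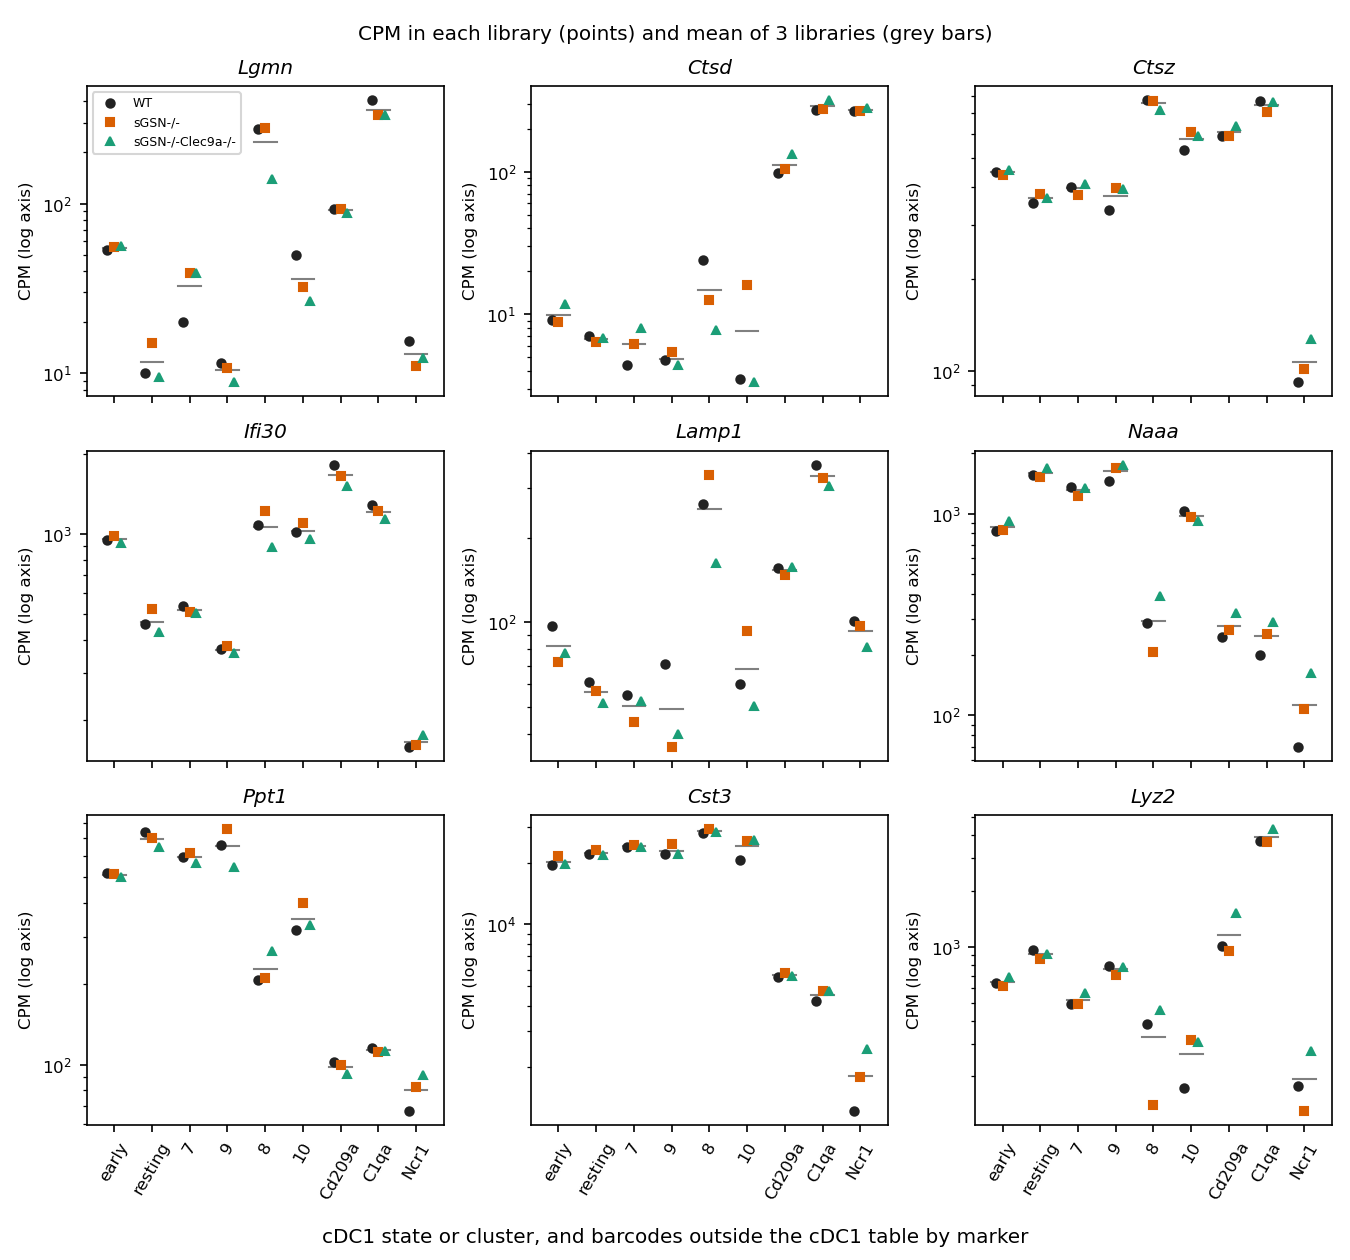
Level of 9 members in CPM (vertical axis, log scale) in 9 groups of cells (horizontal axis), with a point for each library and a grey bar at the mean of the 3. Lgmn goes from 9.57 to 15.0 CPM in resting cDC1s up to 277 CPM in cluster 8, and Naaa and Ppt1 are lowest among the cDC1 states in cluster 8.

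Naaa, Ppt1, Psap and Lipa were called lower than in resting cDC1s in early cells and in clusters 8 and 10. Hexa was called lower in clusters 8 and 10, whereas Npc2 was higher in cluster 8. Naaa, an amidase that hydrolyses N-acylethanolamines (ENSMUSG00000029413, chromosome 5, 92257659 to 92278170, minus strand), had 1560, 1527 and 1693 CPM in resting cDC1s. It had 824, 827 and 922 CPM in early cells, 1031, 963 and 917 CPM in cluster 10, with 288, 205 and 390 CPM in cluster 8. Resting cells lay above all of these without overlap, and cluster 8 below all. Naaa was lower than in resting cells by -0.90 ± 0.14 in early cells (adjusted p = 1.1e-05), -0.74 ± 0.14 in cluster 10 (adjusted p = 0.00067) and -2.29 ± 0.15 in cluster 8 (adjusted p = 1.2e-12), and lower in cluster 8 than in cluster 10 by -1.55 ± 0.16 (adjusted p = 2.9e-08), each in 3 of 3 libraries. Ppt1, which removes palmitate from proteins (ENSMUSG00000028657, chromosome 4, 122836242 to 122859175, plus strand), had 740, 701 and 647 CPM in resting cells, 518, 513 and 501 CPM in early cells, 319, 400 and 331 CPM in cluster 10, with 207, 210 and 266 CPM in cluster 8. The 4 groups did not overlap and stood in that order. Ppt1 fell by -0.45 ± 0.11 in early cells (adjusted p = 0.0018), by -1.0 ± 0.13 in cluster 10 (adjusted p = 1.6e-06) and by -1.44 ± 0.12 in cluster 8 (adjusted p = 9.1e-11), 3 of 3 libraries each. With cluster 1 alone the early value was -0.14 and not past the threshold. Cluster 8 was lower than cluster 10 by -0.44 ± 0.14 (adjusted p = 0.0192, 3 of 3), but not past the threshold without the WT library at -0.44 or the sGSN-/- library at -0.27.

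Both genes were lower in Cd209a and C1qa barcodes than in cDC1s. Ppt1 had 660, 618 and 591 CPM in all cDC1s, 102, 99.9 and 92.5 CPM in Cd209a barcodes and 115, 111 and 112 CPM in C1qa barcodes. It was lower there by -2.83 ± 0.05 (adjusted p = 3.7e-11) and -2.64 ± 0.05 (adjusted p = 2.2e-11), with no overlap in any library. Its difference between these 2 groups, 0.19, was not past the threshold without the sGSN-/- library at 0.20 or the sGSN-/-Clec9a-/- library at 0.16. Naaa had 1342, 1252 and 1451 CPM in cDC1s, 244, 264 and 320 CPM in Cd209a barcodes and 200, 253 and 290 CPM in C1qa barcodes. It was lower in both by -2.45 ± 0.15 (adjusted p = 7.4e-08) and -2.62 ± 0.15 (adjusted p = 2.8e-08), again without overlap. Between C1qa and Cd209a barcodes it was not called, at -0.17, and passed with libraries as a block. Ncr1 barcodes held 70.0, 107 and 162 CPM of Naaa and 67.0, 82.1 and 91.6 CPM of Ppt1.

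Psap encodes prosaposin, the precursor of the saposins that present lipids to hydrolases. It had 3066, 3091 and 3168 CPM in resting cDC1s, 2031, 2164 and 2166 CPM in early cells, 1913, 1982 and 2145 CPM in cluster 10, with 1232, 1363 and 1976 CPM in cluster 8. Resting cells lay above the other 3 groups, and cluster 8 was lowest in each library. Psap was lower in early cells by -0.55 ± 0.13 (adjusted p = 0.0021), in cluster 10 by -0.64 ± 0.14 (adjusted p = 0.0016) and in cluster 8 by -0.84 ± 0.14 (adjusted p = 1.1e-05), each in 3 of 3 libraries. In Cd209a barcodes it had 983, 1081 and 1342 CPM and in C1qa barcodes 1297, 1380 and 1705 CPM against 2748, 2715 and 2882 CPM in all cDC1s. Both were lower without overlap (-1.45 ± 0.13, adjusted p = 2.4e-06, and -1.11 ± 0.13, adjusted p = 1.6e-05). Between these groups it was not called, at 0.35. It passed there with libraries as a block, and without the sGSN-/-Clec9a-/- library at 0.37.

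Npc2, which hands cholesterol to the membrane transporter Npc1, was higher in clusters 7 and 8. It had 903, 880 and 930 CPM in resting cDC1s, 1636, 1830 and 1230 CPM in cluster 8, 1279, 1335 and 1231 CPM in cluster 7, 676, 687 and 721 CPM in early cells and 645, 812 and 676 CPM in cluster 10. Clusters 7 and 8 lay above every resting library and the other 2 groups below. It was higher in cluster 8 by 0.99 ± 0.12 (adjusted p = 6.3e-08), in cluster 7 by 0.60 ± 0.11 (adjusted p = 0.00028) and in cluster 8 against cluster 10 by 1.35 ± 0.13 (adjusted p = 6.4e-09), each in 3 of 3 libraries. The lower values in early cells (-0.38 ± 0.11, adjusted p = 0.0102) and in cluster 10 (-0.36 ± 0.12, adjusted p = 0.0496) were both in 3 of 3. They were not past the threshold without the WT library, at -0.36 and -0.24. The latter was also not past it without the sGSN-/-Clec9a-/- library, at -0.30, or in DESeq2's fit and test, at -0.32. Against 897, 920 and 903 CPM in all cDC1s, Npc2 had 488, 477 and 527 CPM in Cd209a barcodes and 723, 685 and 712 CPM in C1qa barcodes, both lower without overlap (-1.03 ± 0.06, adjusted p = 8.5e-08, and -0.54 ± 0.06, adjusted p = 1.3e-05).

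Lipa, the acid lipase of cholesteryl esters, had 35.1, 39.0 and 39.4 CPM in resting cDC1s, 21.8, 24.5 and 22.2 CPM in early cells, 16.5, 17.3 and 31.0 CPM in cluster 8, 24.8, 16.1 and 10 CPM in cluster 10, with 49.0, 66.7 and 54.8 CPM in cluster 9. Cluster 9 lay above the resting libraries and the others below them. It was lower in early cells by -0.73 ± 0.11 (adjusted p = 1.6e-05), in cluster 8 by -0.75 ± 0.20 (adjusted p = 0.0031) and in cluster 10 by -1.18 ± 0.34 (adjusted p = 0.0169), with 3 of 3 libraries each. The value in cluster 8 was -0.62 and not past the threshold without the WT or the sGSN-/- library, and that in cluster 10 was -1.14 without the sGSN-/- library and -0.88 without the sGSN-/-Clec9a-/- library and -1.03 without mixed barcodes, not past it either. Lipa was the only member higher in cluster 9 (0.56 ± 0.16, adjusted p = 0.0383, 3 of 3), and was not past the threshold without the WT, sGSN-/- or sGSN-/-Clec9a-/- library, at 0.65, 0.48 and 0.63, or without the filter, at 0.52. C1qa barcodes had 73.1, 74.9 and 77.1 CPM of Lipa against 31.9, 33.6 and 35.3 CPM in all cDC1s, without overlap (0.98 ± 0.07, adjusted p = 3.8e-07, 3 of 3). Cd209a barcodes had 38.0, 39.5 and 43.3 CPM, not called at 0.10, but past the threshold at 0.26 by library size. Hexa, a subunit of hexosaminidase, had 169, 163 and 170 CPM in resting cells, 78.5, 71.6 and 118 CPM in cluster 8, with 70.9, 87.0 and 100 CPM in cluster 10. Both clusters lay below it without overlap (-0.79 ± 0.14, adjusted p = 3.9e-05, and -0.97 ± 0.19, adjusted p = 0.00046). In early cells it passed at -0.21 with libraries as a block, and in cluster 7 at -0.33 by library size. Outside the cDC1s its calls were small, -0.21 in Cd209a and 0.21 in C1qa barcodes. They were not past the threshold without the WT library, at -0.23 and 0.18, the former not without the sGSN-/- library at -0.18, with a minimum of 10 UMIs at -0.15 or by library size at -0.05, and the latter not without the sGSN-/-Clec9a-/- library at 0.22 or with a minimum of 1 UMI at 0.12. Grn encodes progranulin, a growth factor and lysosomal protein. It had 130, 128 and 139 CPM in resting cells, 173, 179 and 187 CPM in early cells and 190, 178 and 210 CPM in cluster 7, without overlap (0.44 ± 0.11, adjusted p = 0.0038, and 0.64 ± 0.12, adjusted p = 0.00023). Without the WT library the value in early cells was 0.46 and not past the threshold. Grn was also higher in Cd209a barcodes, with 240, 255 and 266 CPM, and in C1qa barcodes, with 375, 340 and 382 CPM, than in all cDC1s, with 143, 142 and 155 CPM (0.63 ± 0.08, adjusted p = 2.7e-05, and 1.14 ± 0.08, adjusted p = 1.3e-07), without overlap.

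Of the membrane proteins among the members, Lamp1 had the largest called values in cluster 8. Lamp1 encodes a heavily glycosylated protein of the lysosomal membrane that also reaches the cell surface when lysosomes fuse with it (ENSMUSG00000031447, chromosome 8, 13159161 to 13175338, plus strand). It had 61.3, 57.0 and 51.3 CPM in resting cDC1s, 264, 334 and 163 CPM in cluster 8, with 60.2, 93.4 and 50.2 CPM in cluster 10. Cluster 8 lay above both in all libraries, lowest in the sGSN-/-Clec9a-/- library as for Lgmn, and cluster 10 overlapped the resting cells. Lamp1 was higher in cluster 8 by 2.41 ± 0.17 (adjusted p = 3.4e-12) and against cluster 10 by 2.15 ± 0.27 (adjusted p = 7.3e-07), each in 3 of 3 libraries. The share of cells with a Lamp1 UMI was 64.7% in cluster 8, 47.5% in resting cells and 56.4% in Ncr1 barcodes, with median depths of 10867, 13930 and 9675 UMIs. After thinning it was 54.0%, 19.4% and 29.8% of the 198, 3394 and 2262 cells that were deep enough. Ncr1 barcodes had 101, 96.9 and 81.5 CPM of Lamp1, above resting cells in each library, so they cannot serve as its background. In early cells Lamp1 had 96.7, 72.1 and 77.4 CPM (0.54 ± 0.15, adjusted p = 0.0082, 3 of 3), not past the threshold without the WT library at 0.47 or with cluster 1 alone at 0.33. Cd209a barcodes had 156, 147 and 158 CPM and C1qa barcodes 365, 328 and 305 CPM against 75.0, 74.5 and 59.5 CPM in all cDC1s, without overlap (0.98 ± 0.09, adjusted p = 1.7e-06, and 2.08 ± 0.09, adjusted p = 2.7e-09).

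Lamp2, which is needed for fusion of autophagosomes with lysosomes, had 108, 101 and 97.7 CPM in resting cDC1s, 131, 130 and 110 CPM in cluster 7, with 60.5, 88.3 and 60.7 CPM in cluster 9. Cluster 7 lay above and cluster 9 below the resting libraries. Its values of 0.38 ± 0.10 in cluster 7 (adjusted p = 0.009, 3 of 3) and -0.58 ± 0.13 in cluster 9 (adjusted p = 0.0078, 3 of 3) were not past the threshold without the WT library, at 0.38 and -0.41. In cluster 7 this also held without the sGSN-/- library at 0.32 and by library size at 0.28, and in cluster 9 without the sGSN-/-Clec9a-/- library at -0.52. In cluster 8 Lamp2 passed at 0.27 with libraries as a block. Laptm5, a lysosomal membrane protein of blood cells that directs receptors to degradation, had 768, 778 and 780 CPM in resting cells, 410, 406 and 503 CPM in cluster 8, with 592, 731 and 472 CPM in cluster 10. Both clusters lay below the resting libraries (-0.64 ± 0.12, adjusted p = 5.3e-05, and -0.39 ± 0.12, adjusted p = 0.0303, 3 of 3 each). The value in cluster 10 was -0.34 without the WT library and -0.23 without the sGSN-/-Clec9a-/- library, -0.39 without mixed barcodes and -0.33 without cluster 6, not past the threshold. Cluster 8 passed against cluster 10 at -0.43 without the sGSN-/-Clec9a-/- library. Laptm5 was not called in Cd209a or C1qa barcodes against cDC1s, at 0.03 and 0.12, and the latter passed with libraries as a block. Lamp2 was higher in both, at 0.66 and 0.98.

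The 3 members of the proton pump had few calls between states of cDC1s. Atp6v1h, a subunit of its cytosolic sector, had 61.9, 63.5 and 55.7 CPM in resting cDC1s and 36.8, 45.5 and 40.3 CPM in early cells, without overlap (-0.57 ± 0.10, adjusted p = 9.4e-05, 3 of 3 libraries). In cluster 7 it passed at -0.34 with libraries as a block and at -0.44 by library size. Atp6v0d1, of the membrane sector, had 101, 103 and 96.4 CPM in resting cells, 143, 119 and 126 CPM in cluster 8, with 85.0, 77.3 and 104 CPM in cluster 10. Cluster 8 lay above both other groups, by 0.56 ± 0.11 against resting cells (adjusted p = 8.5e-05) and 0.75 ± 0.16 against cluster 10 (adjusted p = 0.00085), each in 3 of 3 libraries. Atp6v1a, the catalytic subunit, had 31.5, 36.4 and 32.9 CPM in resting cells and 53.2, 67.7 and 43.5 CPM in cluster 10, without overlap. Its value of 0.70 ± 0.22 (adjusted p = 0.0316, 3 of 3) was 0.73, 0.55 and 0.83 without the WT, sGSN-/- or sGSN-/-Clec9a-/- library, 0.69 without mixed barcodes and 0.59 without the filter, not past the threshold in any of these runs. Outside the cDC1s Atp6v1a was higher in Cd209a barcodes (0.40) and C1qa barcodes (0.71), and Atp6v1h was lower (-0.55 and -0.28, the latter -0.11 and not past the threshold by library size). Atp6v0d1 was not called in Cd209a barcodes, at -0.00, which library-size scaling turned to 0.16. It was higher by 0.20 in C1qa barcodes against cDC1s and by 0.20 against Cd209a barcodes. Neither call was past the threshold without the WT library, at 0.17 and 0.20, or the sGSN-/-Clec9a-/- library, at 0.16 and 0.17, nor with a minimum of 1 UMI, at 0.12 and 0.17.

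Tfeb, the transcription factor that drives many lysosomal genes, was scarce. It had 10.7, 11.2 and 9.27 CPM in resting cDC1s, and its cluster means ran from 8.27 ± 2.43 CPM in cluster 2 to 14.6 ± 2.0 CPM in cluster 4 (SD). It was called in 0 of the 6 cluster comparisons by edgeR, and its smallest unadjusted p there was 0.042, in cluster 8 at 0.53 ± 0.25 (adjusted p = 0.0788), which passed the threshold without the WT library, at 0.86. Cd209a barcodes had 13.9, 14.9 and 14.1 CPM and C1qa barcodes 13.9, 15.2 and 16.3 CPM against 10.6, 11.9 and 9.84 CPM in all cDC1s, while Ncr1 barcodes had 11.3, 11.1 and 13.4 CPM. The first 2 groups lay above the cDC1s, by 0.24 ± 0.08 (adjusted p = 0.0259, 3 of 3) and 0.31 ± 0.08 (adjusted p = 0.0066, 3 of 3). Without the sGSN-/-Clec9a-/- library these were 0.19 and 0.20, and without the WT library the former was 0.23, none past the threshold. The former was also not past it in DESeq2's fit and test at 0.24 or with a minimum of 10 UMIs at 0.22. Mcoln2, a cation channel of endosomes and lysosomes, had 1.75, 1.62 and 2.28 CPM in cDC1s, 3.93, 3.61 and 3.69 CPM in Cd209a barcodes and 0.978, 1.2 and 1.52 CPM in C1qa barcodes. The Cd209a barcodes lay above and the C1qa barcodes below the cDC1s in each library (0.84 ± 0.19, adjusted p = 0.0027, and -0.80 ± 0.22, adjusted p = 0.007, the latter -0.69 and not past the threshold without the WT library). C1qa barcodes were lower than Cd209a barcodes by -1.64 ± 0.20 (adjusted p = 9e-05, 3 of 3). In Ncr1 barcodes Mcoln2 had 6.38, 5.80 and 7.15 CPM, above all 3 groups.

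The cystatins, inhibitors of cysteine proteases, differed in where they were found. Cst3 had 22078, 23033 and 21911 CPM in resting cDC1s and 28195, 29321 and 28300 CPM in cluster 8, without overlap, against 20598, 25778 and 26034 CPM in cluster 10. It was higher in cluster 8 by 0.55 ± 0.10 (adjusted p = 7.8e-05) and by 0.45 ± 0.10 against cluster 10 (adjusted p = 0.0017), each in 3 of 3 libraries. In cluster 7 it passed at 0.21 with libraries as a block. Cd209a barcodes had 5551, 5796 and 5583 CPM, C1qa barcodes 4191, 4698 and 4690 CPM and Ncr1 barcodes 1215, 1784 and 2437 CPM. The cDC1s, with 21867, 23244 and 21808 CPM, lay far above all of these, and Cst3 was lower by -2.15 ± 0.07 in Cd209a barcodes (adjusted p = 5.3e-10) and by -2.48 ± 0.07 in C1qa barcodes (adjusted p = 1.1e-10), 3 of 3 libraries each. Cst7, the gene of cystatin F, which acts inside lysosomes, had 1.33, 2.45 and 1.12 CPM in resting cells, 5.82, 4.84 and 7.47 CPM in early cells and 3.54, 19.3 and 6.69 CPM in cluster 10. Early cells lay above all resting libraries, from 40, 28 and 36 UMIs (1.88 ± 0.35, adjusted p = 0.00016, 3 of 3). The gene had too few UMIs for that test with cluster 1 alone, without mixed barcodes or without the sGSN-/- or sGSN-/-Clec9a-/- library. Cluster 4 had 8.94, 10.4 and 13.0 CPM and cluster 1 had 3.95, 1.86 and 4.26 CPM, the sGSN-/- library of cluster 1 below its resting level, so the call may rest on cluster 4. The cluster 10 values rest on 1, 6 and 2 UMIs (2.62 ± 0.85, adjusted p = 0.0373, 3 of 3), and without the WT library the value was 2.90 and not past the threshold. Without mixed barcodes cluster 10 kept 1, 0 and 2 UMIs of Cst7, so that all 6 of the sGSN-/- library came from such barcodes, and the gene had too few UMIs for a test there or without the sGSN-/- or sGSN-/-Clec9a-/- library. The share of cells with a Cst7 UMI was 6.61% in early cells, 2.03% in resting cells, 24.6% in Cd209a barcodes and 64.4% in Ncr1 barcodes, so natural killer cells cannot serve as its background. Cst7 had 24.4, 25.1 and 22.7 CPM in Cd209a barcodes, 9.97, 10.5 and 9.81 CPM in C1qa barcodes, 2.51, 3.45 and 2.52 CPM in all cDC1s and 120, 120 and 102 CPM in Ncr1 barcodes. It was higher than in cDC1s by 2.94 ± 0.10 (adjusted p = 1.3e-09) in Cd209a and 1.67 ± 0.11 (adjusted p = 9.4e-08) in C1qa barcodes, without overlap.

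Lyz2 encodes lysozyme, which cuts bacterial cell walls. It had 966, 857 and 920 CPM in resting cDC1s, 635, 612 and 688 CPM in early cells, 494, 494 and 567 CPM in cluster 7, 382, 141 and 456 CPM in cluster 8, with 174, 313 and 308 CPM in cluster 10. Resting cells lay above the others in every library. It was lower in cluster 8 by -1.35 ± 0.23 (adjusted p = 2.2e-05), in cluster 10 by -1.79 ± 0.26 (adjusted p = 1.4e-05) and in cluster 7 by -0.72 ± 0.21 (adjusted p = 0.0192), each in 3 of 3 libraries. The last was not past the threshold without the WT library at -0.64 or in DESeq2's fit and test at -0.73. In early cells the value was -0.51 ± 0.21 (adjusted p = 0.0646, 3 of 3) and passed with libraries as a block and, at -0.51, without the sGSN-/- library. Without the 4 cells that held C1qa, cluster 8 had 242, 140 and 456 CPM. Clusters 8 and 10 were not called apart, at 0.44 ± 0.28 (adjusted p = 0.258), the sGSN-/- library running against the other 2, and without that library the value was 0.98 and past the threshold. C1qa barcodes had 3738, 3662 and 4320 CPM and Cd209a barcodes 1007, 950 and 1520 CPM against 833, 715 and 815 CPM in all cDC1s. The C1qa barcodes lay above both, by 2.13 ± 0.17 against cDC1s (adjusted p = 6e-07) and 1.73 ± 0.17 against Cd209a barcodes (adjusted p = 1.6e-05), 3 of 3 each. Cd209a barcodes against cDC1s gave 0.40 ± 0.17 (adjusted p = 0.0562, 3 of 3), and 0.37 past the threshold with libraries as a block.

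**Figure D3:**
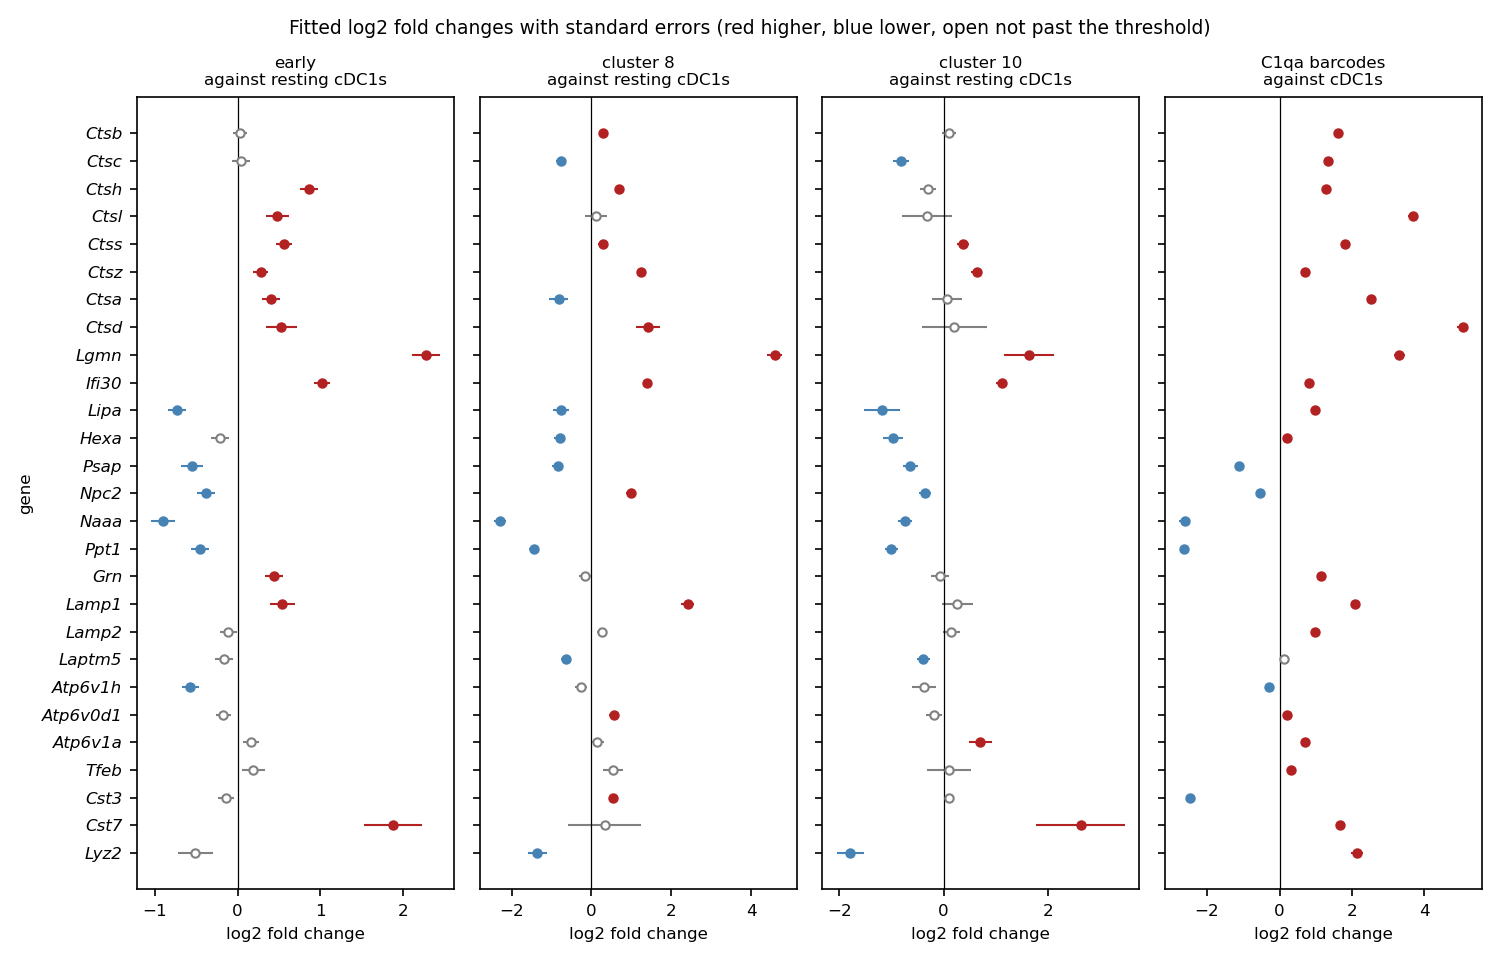
Log2 fold change with its standard error (horizontal axis) of 27 members (vertical axis) in early cDC1s, cluster 8 and cluster 10 against resting cDC1s and in C1qa barcodes against cDC1s, red for higher, blue for lower and open for not past the threshold. Lgmn reaches 4.59 in cluster 8, and Ppt1, at -1.44 there, is at -2.64 in C1qa barcodes.

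A wider list of 96 other lysosomal genes, of which 81 were tested over the clusters and 90 outside them, was read beside the members. Early cDC1s were higher than resting ones for 10 and lower for 23, beside 16.1% and 18.1% of all genes, with a median of -0.14 against -0.01. Cluster 8 was higher for 29 and lower for 16, beside 25.7% and 24.0%, with a median of 0.14 against -0.05. Cluster 10 was higher for 4 and lower for 11, beside 8.53% and 6.53%, with a median of -0.18 against -0.04. Cluster 7 was higher for 14 and lower for 4, beside 11.8% and 6.10% (0.08 against -0.02), and cluster 9 higher for 2 and lower for 0 in edgeR's test, beside 3.99% and 1.32% (-0.10 against -0.02). By role, in cluster 8 8 of 14 proton pump genes were higher and 1 lower, 7 of 15 membrane proteins higher and 1 lower, 5 of 7 other cathepsins and inhibitors higher and 0 lower, 5 of 16 regulators and sorting genes higher and 3 lower, and 4 of 29 hydrolases higher and 11 lower. The difference between these roles was not tested. Cluster 8 was higher than cluster 10 for 24 and lower for 9, beside 15.7% and 12.5% (0.32 against 0.02). Cd209a barcodes were higher than cDC1s for 47 and lower for 27, beside 31.1% and 28.1% (0.26 against 0.00), and C1qa barcodes higher for 57 and lower for 22, beside 34.2% and 32.9% (0.50 against 0.00). C1qa barcodes were higher than Cd209a barcodes for 48 and lower for 9, beside 17.0% and 16.7% (0.26 against 0.00).

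In each comparison the largest called values of that list can be named. Cd63, a tetraspanin of late endosomes, had 658, 923 and 208 UMIs in cluster 8 against 32, 16 and 16 UMIs in the far more numerous resting cells, 8.98 ± 0.19 higher, and 2 UMIs in cluster 10, where the pooled log2 ratio was 8.14 (counting interval 6.29 to 11.19). Laptm4b, a lysosomal membrane protein, was higher by 3.19 ± 0.12 in cluster 8 and also in cluster 7, with 47.5 CPM over the pooled libraries against 21.4 CPM in resting cells, and lower by -3.29 ± 0.13 in Cd209a and -3.03 ± 0.13 in C1qa barcodes against cDC1s. Sgsh, a sulphatase of heparan sulphate, gave 3 UMIs in cluster 8, a pooled log2 ratio of -2.77 (-5.05 to -1.21) to resting cells, and was not past the threshold without the WT library, at -2.37. Lyz1, a second lysozyme, was lower there by -2.31 ± 0.53, from only 1, 3 and 3 UMIs in cluster 8. Sort1, a sorting receptor, had 62 UMIs in cluster 8 and 2 in cluster 10, a pooled log2 ratio of 3.29 (1.38 to 6.37), whereas the pump subunit gene Atp6v0a2 was lower by -1.65 ± 0.22 and Lamtor4, of the Ragulator complex, by -1.31 ± 0.33. Without the WT library Lamtor4 was -1.24 and not past the threshold.

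In early cells the transporter genes Slc29a3 and Slc15a3 were higher by 1.12 ± 0.16 and 0.66 ± 0.15. Igf2r, the receptor that carries hydrolases to lysosomes, was lower by -2.16 ± 0.16, and Galc, a galactosidase of ceramides, by -1.41 ± 0.15. Cluster 7 was higher for the pump subunit gene Atp6v1d by 1.68 ± 0.10 and lower for Igf2r by -1.57 ± 0.21 and for the cystine transporter gene Ctns by -1.27 ± 0.42, the last -1.0 and not past the threshold without the WT library. Cluster 9 was higher for Tfe3, a relative of Tfeb, with 52.8 CPM over the pooled libraries against 22.4 CPM in resting cells, and for Atp6v0c by 0.69 ± 0.11. Cluster 10 was higher for Atp6v0a1 by 2.66 ± 0.30 and for the carboxypeptidase gene Scpep1 by 1.01 ± 0.22, which was 0.77 and not past the threshold without mixed barcodes. There Galc was lower by -2.0 ± 0.49, from only 2, 1 and 3 UMIs in cluster 10. It was not past the threshold without the WT library at -1.90 or the sGSN-/- library at -1.69. Manba, a mannosidase, had no UMI in cluster 10 and was at least 2.06-fold lower by a floor of 3 UMIs over the group, a call not past the threshold without mixed barcodes or any 1 of the WT, sGSN-/- and sGSN-/-Clec9a-/- libraries.

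Outside the cDC1s, Pld3, a nuclease of endolysosomes, was higher by 3.99 ± 0.17 in Cd209a and 5.22 ± 0.16 in C1qa barcodes. Ctsw, a cathepsin of cytotoxic lymphocytes, was higher by 3.29 ± 0.40 in Cd209a barcodes. Ctsf was higher by 4.42 ± 0.36 in C1qa barcodes, from 133 UMIs there and only 3, 1 and 1 UMIs in the cDC1s. Galc was lower by -2.56 ± 0.09 in Cd209a barcodes. C1qa barcodes were higher than Cd209a barcodes for Cd63 by 3.31 ± 0.34 and for Slc11a1, a metal transporter of phagosomes, by 2.82 ± 0.20, and lower for the aspartic protease gene Napsa by -1.09 ± 0.06.

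Genotypes were compared over all cDC1s as a ratio of CPM with no test, since each has 1 library. Genotype, library and the share of males cannot be told apart. A gene is past the fold where the log2 ratio is at least 0.32 or at most -0.32, among genes with at least 50 CPM in either library. For sGSN-/- against WT 0 of 19 members were higher, beside 1.07% of 2519 genes, and 0 were lower, beside 1.15%. The median log2 ratio was -0.012 over the members and 0.010 over all genes. For sGSN-/-Clec9a-/- against sGSN-/- 0 of 19 members were higher, beside 0.69% of 2462 genes, and 1 was lower, beside 3.21%, with medians of -0.064 and -0.066. That member was Lamp1, at 74.5 CPM in the sGSN-/- and 59.5 CPM in the sGSN-/-Clec9a-/- library, a log2 ratio of -0.32 (counting interval -0.43 to -0.22).

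Below that level, Lgmn had 28.7, 41.5 and 25.8 CPM over all cDC1s. Its log2 ratio was 0.53 (0.40 to 0.66) for sGSN-/- against WT and -0.69 (-0.84 to -0.53) for sGSN-/-Clec9a-/- against sGSN-/-. The sGSN-/- library stood above the other 2, which were close to each other. Cluster 8, where Lgmn and Lamp1 were highest, held 84, 114 and 57 cells in the 3 libraries. In resting cells alone Lgmn had 10.1, 15.0 and 9.57 CPM, with log2 ratios of 0.57 and -0.65, as large as over all cDC1s, while Lamp1 had 61.3, 57.0 and 51.3 CPM, with ratios of -0.10 and -0.15, short of the fold. With the 11 clusters weighted equally Lgmn had ratios of 0.06 and -0.51 and Lamp1 of -0.04 and -0.36, the last still past the fold. Ifi30, with 589, 677 and 562 CPM, had log2 ratios of 0.20 and -0.27, and Naaa, with 1342, 1252 and 1451 CPM, had -0.10 and 0.21, all short of the fold.

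By position all 29 members matched the GENCODE M21 annotation of GRCm38, on 17 chromosomes, and 13 overlapped another gene. Promoters from 250 bases before to 50 after the start of a gene were taken from RefSeq (GRCm38.p6), in a table that held 30 promoters of 25 members. The table used held none for Ctsb, Ctse, Ctsh and Atp6v1h. The promoters were searched for the E-box core CACGTG and for the longer TCACGTGA that contains it, the form known as the site of Tfeb and its relatives. Both read the same on either strand. The core was found in 9 of the 30 promoters (30.0%) and in 2349 of all 32851 promoters (7.15%), and the longer form in 5 (16.7%) and in 320 (0.974%). Of 84 promoters of the other lysosomal list 21 (25%) held the core and 9 (10.7%) the longer form. A match describes letters in the window and does not show that a factor binds there. The 5 members with the longer form were Ctsd, Ifi30, Atp6v0d1, Atp6v1a and Ctsa at its second listed start, and the core alone was found for Lamp1, Ctsl, Mcoln2 and the second start of Lgmn. The 5 promoters with the longer form and that of Lamp1, which holds 4 cores, are printed to show how the letters lie, in lower case with each match in capitals, 5′ to 3′ on the strand of the gene. They are Ctsd (chr7:142387778-142388077, minus), Ifi30 (chr8:70766614-70766913, minus), Atp6v0d1 (chr8:105566015-105566314, minus), Atp6v1a (chr16:44139210-44139509, minus), Ctsa (chr2:164833523-164833822, plus) and Lamp1 (chr8:13158911-13159210, plus).
Ctsd: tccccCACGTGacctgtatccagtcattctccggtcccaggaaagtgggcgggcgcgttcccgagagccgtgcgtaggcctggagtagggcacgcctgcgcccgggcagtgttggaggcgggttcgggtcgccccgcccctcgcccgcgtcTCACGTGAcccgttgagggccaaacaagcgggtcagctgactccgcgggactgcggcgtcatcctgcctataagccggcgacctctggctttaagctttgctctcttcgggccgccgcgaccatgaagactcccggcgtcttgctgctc
Ifi30: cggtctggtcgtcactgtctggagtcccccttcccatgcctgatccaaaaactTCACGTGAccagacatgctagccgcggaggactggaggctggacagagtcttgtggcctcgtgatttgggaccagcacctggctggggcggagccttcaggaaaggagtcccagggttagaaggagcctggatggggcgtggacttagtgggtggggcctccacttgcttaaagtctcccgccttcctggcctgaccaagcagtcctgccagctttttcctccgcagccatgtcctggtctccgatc
Atp6v0d1: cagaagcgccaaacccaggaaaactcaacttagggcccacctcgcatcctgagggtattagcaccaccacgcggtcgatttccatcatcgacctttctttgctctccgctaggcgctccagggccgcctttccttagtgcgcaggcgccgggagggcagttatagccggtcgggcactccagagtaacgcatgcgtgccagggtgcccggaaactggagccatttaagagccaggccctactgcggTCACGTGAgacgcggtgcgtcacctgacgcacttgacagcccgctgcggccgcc
Atp6v1a: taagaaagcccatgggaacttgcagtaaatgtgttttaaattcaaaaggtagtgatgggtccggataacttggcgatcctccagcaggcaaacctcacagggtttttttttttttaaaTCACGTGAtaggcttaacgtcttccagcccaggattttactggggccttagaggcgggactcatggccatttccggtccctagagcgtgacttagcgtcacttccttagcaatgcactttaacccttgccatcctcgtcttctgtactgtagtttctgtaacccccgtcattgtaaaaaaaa
Ctsa: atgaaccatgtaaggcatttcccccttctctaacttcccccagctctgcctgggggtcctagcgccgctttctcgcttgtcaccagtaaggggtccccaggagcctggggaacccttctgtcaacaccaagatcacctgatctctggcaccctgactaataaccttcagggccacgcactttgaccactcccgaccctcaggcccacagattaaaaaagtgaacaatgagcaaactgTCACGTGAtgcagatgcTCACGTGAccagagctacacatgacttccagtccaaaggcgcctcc
Lamp1: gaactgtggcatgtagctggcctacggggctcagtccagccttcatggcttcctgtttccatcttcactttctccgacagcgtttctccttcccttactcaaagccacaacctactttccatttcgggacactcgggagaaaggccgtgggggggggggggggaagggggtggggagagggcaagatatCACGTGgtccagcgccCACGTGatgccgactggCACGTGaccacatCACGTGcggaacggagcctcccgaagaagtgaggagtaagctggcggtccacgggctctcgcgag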

How the data were processed

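The values come from the raw gene counts per cell that the authors deposited, made with Cell Ranger 6.0.1 on mm10, and from the table of cDC1s they deposited, whose clusters came from Seurat 4.0.0 by the submitters' processing notes. The members and the lists were chosen with earlier results of these data known. Barcodes outside that table needed at least 200 genes and a mitochondrial share up to 16.7%, the mean plus 2 SD, which left out 54 and 1300 barcodes. Another 20 barcodes with equal Cd209a and C1qa counts joined neither group. UMIs were summed by library and state, 18 sums in 1 fit and 9 in another, filtered by filterByExpr and tested with edgeR 4.0.16 in R 4.3.3 (group means only, TMM, quasi-likelihood test, Benjamini-Hochberg over all genes). As an alternative, DESeq2 1.42.0 was run in full on the same filtered sums, with its own size factors, dispersions and test. Sums and intervals used Python 3.11.15 with numpy 2.4.6, scipy 1.17.1 and pandas 2.3.3, and plots matplotlib 3.10.9. Intervals cover counting error only.

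All 29 members are named, and of the other lysosomal genes the 2 with the largest and the 2 with the smallest log2 fold change among those called in each comparison, apart from results left out because they need an item withheld for evaluation. Cell types were checked with lists of marker genes. Sums of the same library were correlated after group means were removed: 27 correlations ran from -0.0025 to 0.427 and 21 exceeded 0.1, so a fit with libraries as a block is given where it changes a call. Alternatives were library-size scaling, DESeq2's fit and test, no filter, the block, leaving out each library, leaving out mixed barcodes (194 cDC1s, 462 Cd209a and 675 C1qa barcodes with markers of another type, since no doublet caller was run), and a minimum of 1 or 10 UMIs of Cd209a or C1qa. Chosen after seeing the data were early cells as cluster 1 only, resting cells without cluster 6, and cDC1s without the 18 cells that held at least 3 C1qa UMIs. The procedure was also run on simulated counts with known changes. It found 90% of 2-fold changes in early cells, 70% in cluster 8 and 43% in cluster 10, so counts of calls cannot be compared between clusters, and 2.87% to 9.52% of the called genes were unchanged ones, most in C1qa barcodes against cDC1s.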

Additional observations from a re-analysis of the deposited data

Results flagged for a closer look

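For 4 members the libraries moved in opposite directions in a comparison of states, each by more than its counting interval around 0, and in every case the difference was not tested. The log2 ratio of Psap in cluster 9 to resting cDC1s was -0.06 for WT, 0.22 for sGSN-/- and 0.09 for sGSN-/-Clec9a-/-. For Naaa the same ratio was -0.11 for WT and 0.14 for sGSN-/-. The log2 ratio of Cst3 in cluster 10 to resting cDC1s was -0.10 for WT, 0.16 for sGSN-/- and 0.25 for sGSN-/-Clec9a-/-. For Lyz2 in cluster 8 to cluster 10 it was 1.14 for WT, -1.15 for sGSN-/- and 0.57 for sGSN-/-Clec9a-/-.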

How the results depend on the processing

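Of the 146 calls of members 108 held in every alternative run for them. Library-size scaling left 140 of the 146, DESeq2's fit and test 142, no filter 139 and libraries as a block 146, with 14 new calls that the results name. Leaving out the WT, sGSN-/- or sGSN-/-Clec9a-/- library left 114 of 146, 128 of 144 and 127 of 144, in fits where each state kept 2 libraries. Leaving out mixed barcodes left 135 of 144, cluster 1 as the only early cells 10 of 16, resting cells without cluster 6 58 of 61, dropping cDC1s with C1qa 28 of 29, and a minimum of 1 or 10 UMIs 73 of 76 each. The cause of the changes was not tested. Cluster 10 held 891318 UMIs and cluster 8 held 2817896, and the part of depth in their calls was not tested.

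Library-size scaling gave 3 higher and 3 lower members and 928 lower genes in cluster 7, 6 lower members and 1612 lower genes in cluster 8 against cluster 10, 2270 lower genes in Cd209a barcodes, and 0.16 for Atp6v0d1 there. DESeq2 gave 8 higher members in cluster 7 and 4 lower in cluster 8 against 10. No filter gave 2 lower members in cluster 7, and in cluster 9 0 higher and 4 lower members (8 at an unadjusted p below 0.05 in edgeR) and 174 lower genes. The block gave 8 higher and 2 lower members in cluster 7 and 4 lower in cluster 9. Cluster 1 alone gave 5 higher members and -0.19 for Ctsd in early cells, and no cluster 6 gave 181 lower genes in cluster 9. Without mixed barcodes 2 members were higher in cluster 10 and Atp6v0d1 was 0.02 in Cd209a barcodes. With 1 UMI as the minimum Naaa was 0.01 in C1qa against Cd209a barcodes.

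Leaving out 1 library at a time gave, in early cells, 5 to 8 higher members, 680 to 1107 higher genes and 825 to 1282 lower genes. In cluster 7 it gave 3 to 5 higher and 0 to 1 lower members and 172 to 354 lower genes, and in cluster 9 0 to 0 higher and 0 to 2 lower members, 184 to 287 higher and 27 to 65 lower genes. In cluster 8 it gave 1307 to 1818 lower genes. In cluster 10 it gave 2 to 4 higher members, 467 to 536 higher and 258 to 339 lower genes, and in cluster 8 against 10 1 to 3 lower members and 678 to 789 lower genes. In C1qa against Cd209a barcodes it gave 1438 to 1706 higher and 1350 to 1657 lower genes, and Atp6v0d1 in Cd209a barcodes ran from -0.03 to 0.04.

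Between genotypes, no library can be left out. For sGSN-/- against WT a minimum of 10 CPM gave 1 higher member, 133 higher and 158 lower genes, equal weights for clusters 8 higher genes, and resting cells alone 16. For sGSN-/-Clec9a-/- against sGSN-/- a minimum of 10 CPM gave 2 lower members, 75 higher and 378 lower genes, and resting cells alone 0 lower members.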
